A study of Mus musculus with 4 samples.

Results

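Mitosis and G2/M genes form the machinery that takes a cell from the end of DNA replication through division. This account covers 47 known genes of that kind, chosen by name, in mouse embryonic fibroblasts (MEFs), cells grown out of embryos. Each gene was read from its brightest probe set by mean signal over the arrays. A probe set is a group of short probes on the array that report 1 transcript. Of the 47 genes, 46 had a probe set assigned to that gene alone, and 44 of these had a mean signal of at least 111, the limit for entry, as did 10174 genes in all. Signal of Ccnb1, cyclin B1, was not analysed here. Cdc25c and Oip5 lay under the limit and are described apart.

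The study hybridized total RNA to 4 Affymetrix Mouse Genome 430 2.0 arrays, 1 per group. Cells were labelled Wip1+/+ or Wip1-/-, and Wip1, the product of Ppm1d, is a phosphatase that is known to dampen p53 signalling after DNA damage. Each genotype gave 1 array of unirradiated cells, labelled 0 h, and 1 array of cells taken 4 h after a 5 Gy dose of gamma radiation. No array held unirradiated cells at 4 h, so effects of radiation and of 4 h in culture cannot be told apart. The labels give neither the passage nor the number of embryos, and state no allele design for Wip1-/-. Per the series text, p53 target genes were the purpose of the arrays.

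Each group held a single array, so no comparison of 2 arrays could be tested, no spread between cultures was measured, and precision is limited by there being 4 arrays. Counts of genes that met a rule by their brightest probe set are therefore set beside the share of all 10174 genes that did. Signal is given in the deposited intensity units, which cannot be compared between genes, and a ratio is between arrays for 1 gene. In RNA from a whole culture, fewer cells in G2 or mitosis and less RNA per cell cannot be told apart.

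The unirradiated array labelled Wip1-/- stood apart. Over 18 spike-in control probe sets, transcripts added in known amounts, the SD of the log2 ratio was 0.44 to 0.47 when this array was one of the pair and 0.07 to 0.10 when it was not. Ppm1d read 375 (unirradiated) and 364 (irradiated) on the Wip1+/+ arrays, and 504 and 482 on the others, so its signal did not separate the genotypes in the direction of the labels. A second probe set of Ppm1d read 317, 463, 219 and 561. Where the probes lie relative to the deleted part is not given here. The 12 fibroblast markers, among them Col1a1 and Vim, were all above the floor of 46.5, the signal below which values were not ordered, on every array. The 15 macrophage markers summed to 10169 and 10149 on the Wip1+/+ arrays and to 2829 and 2394 on those labelled Wip1-/-, with Aif1 and Itgam at or below the floor on all 4 arrays.

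Entry into mitosis is driven by the kinase Cdk1 bound to cyclin A or B. Wee1 holds Cdk1 inactive by phosphorylation and Cdc25 phosphatases release it. Aurora and Polo-like kinases then build the spindle, kinetochores attach chromosomes to it, and the checkpoint proteins of the Mad and Bub families delay Cdc20 and the anaphase-promoting complex (APC/C) until attachment is complete. Most of these genes peak in G2 and mitosis. They are known to be held down in G0 and G1 by the DREAM complex, which p53 can engage through the CDK inhibitor p21, and switched on by MuvB with B-Myb and Foxm1. DREAM and MuvB are known to bind a promoter element called CHR, and CCAAT boxes lie upstream of it in many of these genes.

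Promoters of some mitotic genes are shown for these shared elements. RefSeq promoters of GRCm38.p6, from 250 bases before to 50 after the start site, were held for 39 of the 47 genes and for 27025 genes in all. The stretches below run from position -120 to -1 relative to the start site, which is +1. Only measured genes of a fixed list with such an element in this stretch are shown, so its presence in each is by selection. Birc5 was left out for having none there. Capitals mark matches, on either strand, to the letters TTTGAA or TTTAAA of the CHR and to CCAAT. On the other strand CCAAT is printed as ATTGG, while TTTAAA reads alike on both strands. The motifs do not overlap each other here.
Ccnb2: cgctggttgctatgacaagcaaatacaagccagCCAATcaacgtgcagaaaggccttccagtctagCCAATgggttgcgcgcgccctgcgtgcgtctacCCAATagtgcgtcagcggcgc
Cdk1: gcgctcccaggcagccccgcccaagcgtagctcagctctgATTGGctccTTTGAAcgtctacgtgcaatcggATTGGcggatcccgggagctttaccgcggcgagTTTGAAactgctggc
Plk1: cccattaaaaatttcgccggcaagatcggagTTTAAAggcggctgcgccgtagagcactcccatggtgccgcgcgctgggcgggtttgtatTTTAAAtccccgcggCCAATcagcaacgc
Kif23: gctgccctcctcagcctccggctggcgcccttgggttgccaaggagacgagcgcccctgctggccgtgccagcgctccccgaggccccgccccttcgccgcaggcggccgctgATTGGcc
Aurka: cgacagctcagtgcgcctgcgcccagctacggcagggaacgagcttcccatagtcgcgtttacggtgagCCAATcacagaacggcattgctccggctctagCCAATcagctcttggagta
Cdc20: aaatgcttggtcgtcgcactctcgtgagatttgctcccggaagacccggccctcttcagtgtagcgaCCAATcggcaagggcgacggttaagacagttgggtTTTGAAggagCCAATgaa
Bub1b: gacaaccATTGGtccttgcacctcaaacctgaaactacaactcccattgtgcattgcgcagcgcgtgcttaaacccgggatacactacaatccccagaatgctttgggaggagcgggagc

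These stretches lie at chr9:70421555-70421674 on the minus strand for Ccnb2, chr10:69352913-69353032 (minus) for Cdk1 and chr7:122159315-122159434 (plus) for Plk1. They lie at chr9:61946800-61946919 (minus) for Kif23, chr2:172370571-172370690 (minus) for Aurka, chr4:118437344-118437463 (minus) for Cdc20 and chr2:118598091-118598210 (plus) for Bub1b. Ccnb2 holds 3 CCAAT boxes, starting at -87, -54 and -21, and TTTGAA starts at 5, just past the start site. In Cdk1, TTTGAA starts at -71 and at -15, and CCAAT on the other strand at -80 and -48. Cdc20 has TTTGAA at -18 between CCAAT boxes at -53 and -8. In Plk1, TTTAAA lies at -89 and -29 and TTTGAA at 31. TTTGAA starts at 3 in Kif23, 33 in Aurka and 41 in Bub1b.

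Over the full 300 bases, 28 of the 39 member promoters held TTTGAA (71.8%), against 20.2% of all promoters. CCAAT was in 30 of 39 (76.9%, against 41.1%), and 2 or more CCAAT boxes were in 21 of 39 (53.8%, against 13.3%). TTTAAA was in 11 of 39 (28.2%, against 14.9%). Either CHR form together with CCAAT was in 27 of 39 (69.2%, against 12.2%). Between -60 and 50, a window chosen after the positions were seen, 28 of 39 held either form (71.8%, against 10.5%). A gene with several promoters was counted once. Among members measured on the arrays, the median log2 ratio after irradiation of Wip1+/+ cells was -0.24 for the 26 with either CHR form in that window and -0.08 for the 11 without. The same medians were -0.04 and -0.37 in cells labelled Wip1-/-, in the opposite order. Split by CCAAT over the full 300 bases, the Wip1+/+ medians were -0.18 with it (28 members) and -0.15 without (9), and -0.07 and -0.13 in cells labelled Wip1-/-. Split by CCAAT together with either CHR form, they were -0.21 (25) and -0.11 (12), and -0.08 and -0.07.

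In Wip1+/+ cells, mitotic genes read lower 4 h after irradiation by small amounts. Of 44 genes, 35 had a ratio below 1, where 46.9% of all genes did, and 9 had a ratio above 1 (53% of all genes). The median log2 ratio was -0.18, against 0.02 over all genes. At least 20% lower were 18 of 44, against 8.89% of all genes, and 0 were at least 25% higher, against 12.4%. None was 2-fold apart, against 0.59% of all genes lower and 0.835% higher. The median stayed between -0.14 and -0.22 under every alternative processing. As a partial measure of error, the SD of this log2 ratio between probe sets of one member was 0.30. That SD covers probes, not cultures, and is larger than most single ratios. For 20 members another probe set also passed the limit, and 24 of these 32 other probe sets went the same way as the brightest (75%, against 56.0% over all genes). In 14 of the 20, every passing probe set was lower: Aurkb, Bub3, Ccna2, Cdca8, Foxm1, Hmmr, Kif11, Kif2c, Nek2, Plk4, Prc1, Racgap1, Tpx2 and Wee1. In 0 of the 20 was every passing probe set higher. Here and below, no share over all genes was computed for counts of members whose passing probe sets all agree.

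In cells labelled Wip1-/-, ratios after irradiation were split in direction, though among the larger ones more were lower than higher. Of 44 genes, 25 had a ratio below 1, against 51.6% of all genes, and 19 above 1, against 48.3%, with a median log2 ratio of -0.07 against -0.02 over all genes. At least 20% lower were 15 (background 27.7%) and at least 25% higher 5 (26.7%). One gene, Incenp, was 2-fold higher (4.77% of all genes) and 0 were 2-fold lower (2.51%). Probe sets of one gene disagreed more on these arrays: the SD between them was 0.65 for members, and 14 of 32 other probe sets went the same way as the brightest (43.8%, against 52.2% over all genes). All passing probe sets were lower in 7 of 20 members: Bub1b, Bub3, Ccna2, Foxm1, Kif23, Kif2c and Pttg1. They were all higher in 0 of the 20. The array that stood apart is the denominator here. Set instead against the mean of both Wip1+/+ arrays, the irradiated array labelled Wip1-/- gave a median of 0.01, against 0.01 over all genes. Of 44 members 18 were below 1 (47.5% of all genes). That ratio crosses the genotype labels and has an irradiated array in its denominator.

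Both irradiation ratios, which share no array, were below 1 in 21 of 44 members (47.7%, against 26.0% of all genes). They were above 1 in 5: Kif20a, Nusap1, Spc25, Top2a and Ube2c (11.4%, against 27.3%). At least 20% lower in both genotypes were Ccna2, Cdca8, Foxm1, Hmmr, Mki67 and Nuf2, 6 of 44 (13.6%, against 3.48%). Other passing probe sets of Cdca8 were higher in cells labelled Wip1-/-, with log2 ratios of 0.48 and 0.26. Those of Hmmr had -0.02, 0.14 and 0.69 there. A ratio below 1 in Wip1+/+ and above 1 in cells labelled Wip1-/- was found in 14 members (31.8%, against 20.9%). The reverse was found in 4, Birc5, Cdc25b, Kif23 and Pttg1 (9.09%, against 25.6%). In Wip1+/+ cells alone 35 of 44 were below 1, so these joint shares can differ from those of all genes without agreement between the genotypes. Such agreement was not tested.

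**Figure D1:**
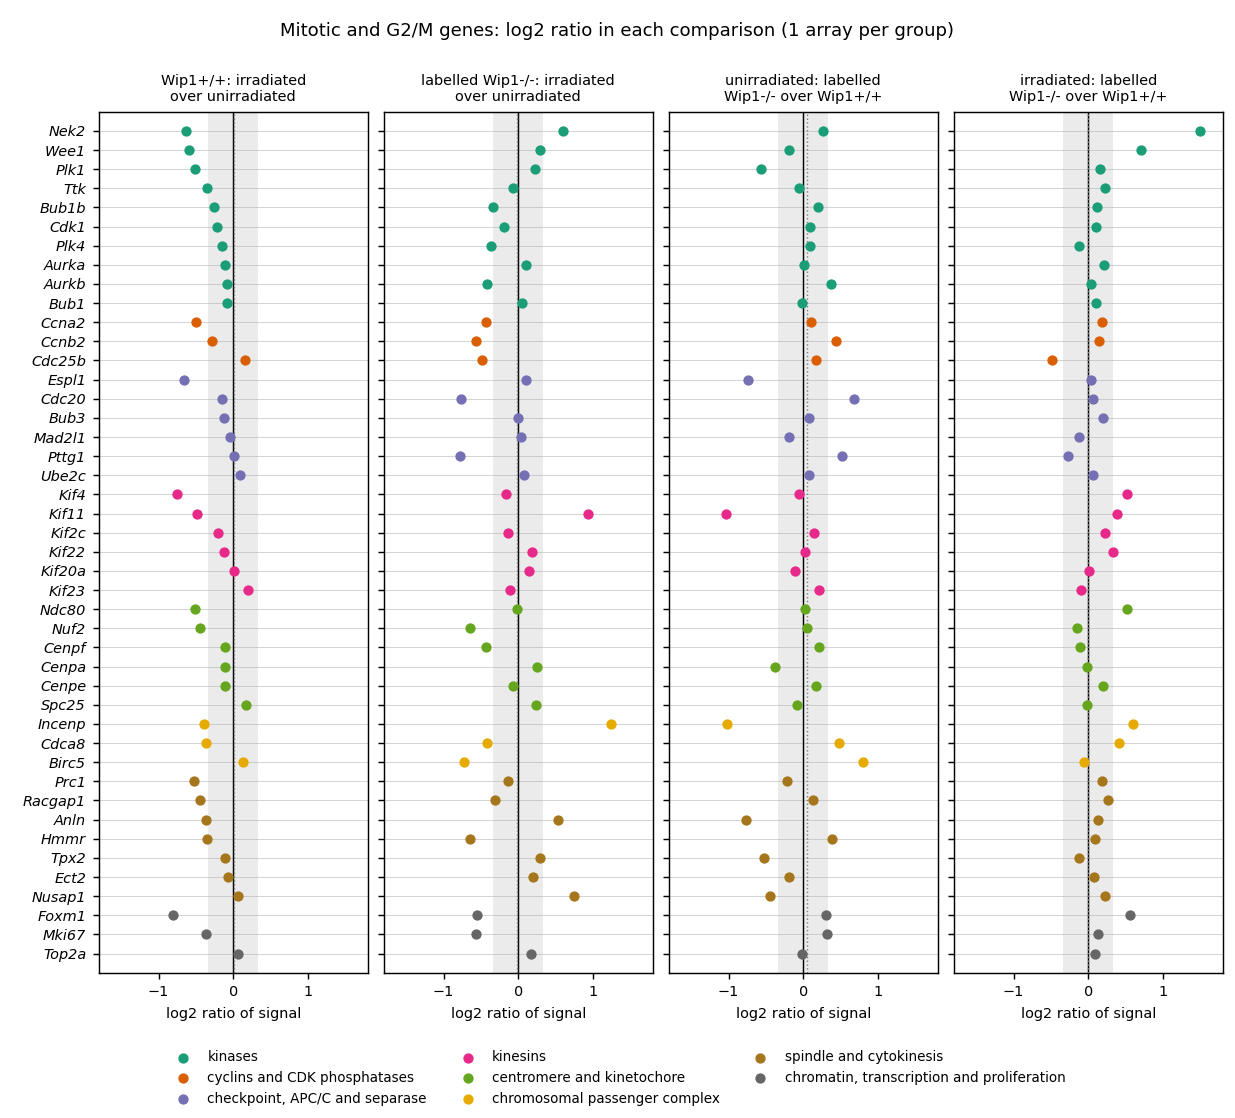
Log2 ratio of signal (x axis) for each of the 44 mitotic genes (rows, coloured by role) in 4 comparisons, 1 array per group and no error bars. The grey band spans ratios from 20% lower to 25% higher and the dotted line is the median of all genes. In the first panel 35 points lie left of 0 and 18 left of the band; in the last, 33 lie right of 0.

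The irradiated arrays of both genotypes, which do not involve the array that stood apart, gave the comparison by genotype after damage. Mitotic genes read higher on the array labelled Wip1-/-: 33 of 44 had a ratio above 1, against 49.4% of all genes, and 11 below 1, against 50.5%. Their median log2 ratio was 0.12, against 0.00 over all genes. At least 25% higher were 9 of 44 (background 13%), and at least 20% lower was 1, Cdc25b (14%). Nek2 was 2-fold higher (1.55% of all genes) and 0 were 2-fold lower (1.99%). The median stayed between 0.08 and 0.14 under every alternative. The SD between probe sets was 0.35, and 19 of 32 other probe sets went the same way (59.4%, against 59.0% over all genes). Every passing probe set was higher in 11 of 20 members: Aurkb, Bub1b, Bub3, Cdc20, Cdca8, Kif11, Kif22, Kif2c, Prc1, Racgap1 and Wee1. The second probe set of Wee1 was higher by a log2 ratio of only 0.0005. Macrophage markers differed on the same arrays: all 13 that passed the limit were at least 20% lower in cells labelled Wip1-/-, with a median log2 ratio of -1.67. Their part in the mitotic ratios was not tested.

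Without irradiation the genotypes differed in no common direction. Of 44 genes, 26 had a ratio of labelled Wip1-/- over Wip1+/+ above 1 (background 53.3%) and 18 below 1 (46.7%). Their median log2 ratio was 0.06, against 0.05 over all genes. At least 25% higher were 7 (30.3%) and at least 20% lower 8 (26.6%). Kif11 and Incenp were 2-fold lower (5.87%) and 0 were 2-fold higher (3.47%). This comparison uses the array that stood apart, and the SD between probe sets was 0.52, with 14 of 32 other probe sets going the same way as the brightest (43.8%, against 53.7% over all genes). With the irradiated array labelled Wip1-/- in its place the median was -0.10, against 0.02 over all genes. Below 1 were 25 of 44 (47.3% of all genes), but dose and time then differ too. All 13 passing macrophage markers were at least 20% lower here as well, with a median of -1.54, and their part was not tested.

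The irradiated Wip1+/+ array read lowest of the 4 for 23 of the 44 genes (52.3%), against 20.7% of all genes, and highest for 1 (2.27%, against 22%). The unirradiated array labelled Wip1-/- read highest for 22 (50%, against 39.9%) and lowest for 13 (29.5%, against 35.7%). Each comparison of 2 arrays shares an array with 2 of the others, so these counts are not independent of each other.

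The log2 ratio after irradiation in cells labelled Wip1-/- minus that in Wip1+/+ cells uses all 4 arrays. It was above 0 in 29 of 44 members (47.5% of all genes) and below 0 in 15 (52.5%), with a median of 0.11 against -0.03 over all genes. A difference of 25% or more upward was found in 13 (26.6%) and of 20% or more downward in 5 (30.7%). Incenp, Kif11 and Nek2 differed upward by 2-fold or more (5.3%), and 0 differed downward by that much (4.19%). The SD of this difference between probe sets was 0.67, and 12 of 32 other probe sets went the same way as the brightest (37.5%, against 51.1% over all genes). All passing probe sets were above 0 in Bub3, Kif11, Prc1, Racgap1 and Tpx2, 5 of 20, and below 0 in Bub1b and Pttg1.

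The 10 mitotic kinases and checkpoint kinases all had a ratio below 1 after irradiation of Wip1+/+ cells (46.9% of all genes). Their median log2 ratio was -0.24, and all were also below 1 under quantile, cyclic loess and brighter-median scaling. Cdk1, the central mitotic kinase, read 3220.3 unirradiated and 2782 irradiated in Wip1+/+ cells, and 3422 and 3001 in cells labelled Wip1-/-. Values of each gene below follow that order. It was 1.16-fold lower in the first and 1.14-fold lower in the second, so its ratio was nearly the same in both genotypes. Wee1, the kinase that restrains Cdk1, read 1006 and 666 in Wip1+/+ cells, 1.51-fold lower, but 886 and 1082 in those labelled Wip1-/-, 1.22-fold higher. Its second probe set read 401 and 307, then 581 and 307, so the probe sets disagreed in the cells labelled Wip1-/-. After irradiation the brighter was 1.63-fold higher by genotype label and the other had a log2 ratio of 0.00.

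Plk1, the Polo-like kinase of mitotic entry and spindle assembly, read 899.8 and 633 in Wip1+/+ cells, 1.42-fold lower. Cells labelled Wip1-/- gave 607 and 708, 1.17-fold higher, from a start below the unirradiated Wip1+/+ value. Plk4, which starts centriole duplication, read 1012 and 911, then 1079 and 838, lower on both irradiated arrays. Its 2 other probe sets were lower in Wip1+/+ cells too but higher in cells labelled Wip1-/-, with log2 ratios up to 0.53. Aurka, the kinase of centrosomes and spindle poles, differed little, with 1136 and 1053 in Wip1+/+ cells and 1141 and 1223 in those labelled Wip1-/-.

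Aurkb, the kinase of the chromosomal passenger complex, read 401 and 378, then 517 and 387. Its second probe set read 283 and 250.2, then 202 and 271, so both were lower in Wip1+/+ cells and they were opposite in cells labelled Wip1-/-. Nek2, a centrosome kinase, had the widest genotype ratio after irradiation. Its brightest probe set read 390.3 and 252, then 471 and 712, 2.83-fold higher in irradiated cells labelled Wip1-/- than in Wip1+/+. The other passing probe set read 166 and 152, then 204 and 113 (112.5), lower by that comparison, with a log2 ratio of -0.44.

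Of the checkpoint kinases, Bub1 was nearest to 1. It read 716 and 678, then 709 and 732, within 1.06-fold in each genotype. Bub1b, which inhibits Cdc20 as BubR1, read 557 and 465, then 640.2 and 504, lower after irradiation in both, while its second probe set was higher in Wip1+/+ cells with a log2 ratio of 0.20. Ttk, the Mps1 kinase that starts the checkpoint signal, read 303 and 238 in Wip1+/+ cells, 1.27-fold lower, and 292 and 278 in those labelled Wip1-/-.

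Cyclins were lower after irradiation in both genotypes. Ccna2, cyclin A2, read 1565 and 1104 in Wip1+/+ cells and 1687 and 1256 in those labelled Wip1-/-, 1.42-fold and 1.34-fold lower. Its second probe set gave the same directions, with log2 ratios of -0.31 and -0.46. Of the 20 members with more than 1 passing probe set, Ccna2 is thus one of 4, with Bub3, Foxm1 and Kif2c, that had all of them lower in both genotypes. Ccnb2, cyclin B2, read 1220 (1219.5) and 1004, then 1649 and 1112, 1.21-fold and 1.48-fold lower. The larger ratio starts from the array that stood apart, which read highest of the 4. Cdc25b, a phosphatase that activates Cdk1, read 199.9 and 224 (223.5) in Wip1+/+ cells and 225 (224.7) and 160.1 in those labelled Wip1-/-, lower in the second alone.

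Genes of the checkpoint effector, the APC/C and separase had a median log2 ratio of -0.08 in Wip1+/+ cells. Cdc20, the APC/C activator, read 3777 and 3392, then 6059 and 3554, 1.11-fold and 1.70-fold lower. Its dimmest passing probe set was higher in both, with log2 ratios of 0.74 and, from a signal below the floor, at least 2.46. Its second probe set read 2273 and 1942, then 1904 and 2035, so the high value of 6059 on the unirradiated array labelled Wip1-/- rests on 1 probe set. Pttg1, securin, which restrains separase, showed the same shape: 4910.0 and 4950.0, then 7026 and 4107, with 1472 and 1360.1, then 1507 and 1177 by its second probe set. Both of its probe sets were lower after irradiation in cells labelled Wip1-/-, by log2 ratios of -0.77 and -0.36. Ube2c, the ubiquitin-conjugating enzyme of the APC/C, was the steadiest, at 3463, 3680.0, 3638 and 3847. Bub3, a checkpoint scaffold, read 6206 and 5695, then 6574 and 6537, and Mad2l1, the Mad2 inhibitor of Cdc20, 1794 and 1745, then 1568 and 1603. Espl1, separase itself, which cuts cohesin, stood out from these with 374 and 237 in Wip1+/+ cells, 1.58-fold lower, and 225 and 242 in those labelled Wip1-/-.

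**Figure D2:**
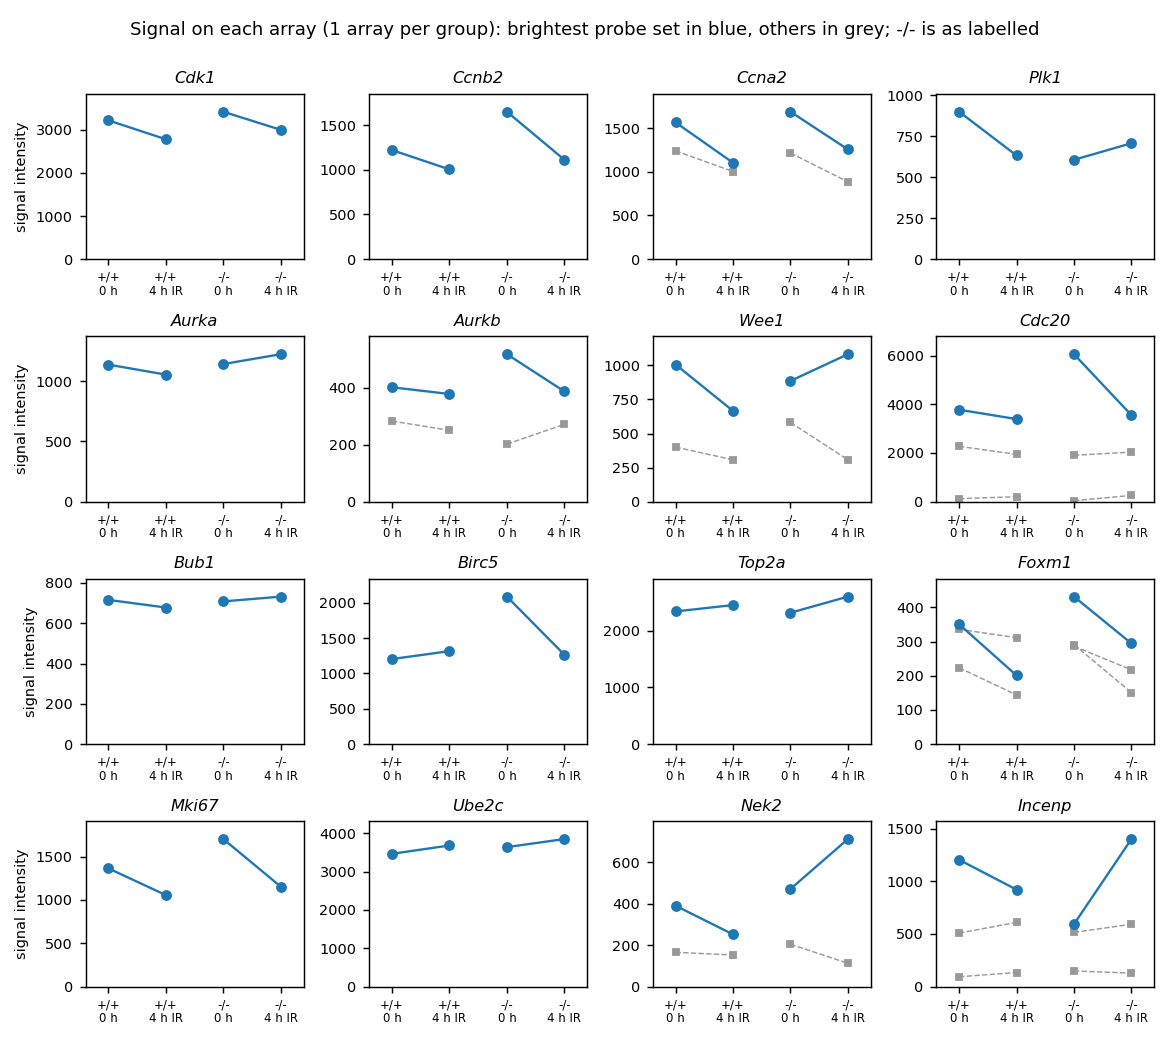
Signal intensity (y axis, from 0) of 16 mitotic genes on the 4 arrays (x axis: Wip1+/+ and labelled Wip1-/-, each unirradiated at 0 h and 4 h after radiation), blue for the brightest probe set and grey for others that passed the limit. Lines join arrays of 1 genotype; there are no replicates and no error bars. Ccna2 and Foxm1 slope down in both genotypes by all their probe sets. Those of Wee1, Cdc20, Aurkb, Nek2 and Incenp part ways on the arrays labelled Wip1-/-, and those of Cdc20 and Incenp also in Wip1+/+ cells.

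Among kinesins, the motors of the spindle, 4 of 6 had a ratio below 1 in Wip1+/+ cells (46.9% of all genes). Under each of the 3 other scalings 5 of 6 did. Kif4, a chromokinesin of chromosome compaction and the central spindle, read 444 and 264 in Wip1+/+ cells, 1.68-fold lower, against 426 and 379 in those labelled Wip1-/-. Kif11, the motor that separates spindle poles, read 398 and 284, then 194 and 371, so the array that stood apart held its lowest value. By its other probe sets Kif11 read 255 and 229, then 292 and 292 (291.7), and 297 and 181, then 333 and 232, which do not show that low value. All 3 probe sets were lower in irradiated Wip1+/+ cells and all 3 were higher by genotype label after irradiation, with log2 ratios from 0.35 to 0.39. Kif2c, a microtubule depolymerase at centromeres, read 545 and 475 (474.5), then 605 and 552, lower in both. Kif22 read 1749 and 1610.1, then 1780.0 and 2026, and Kif20a, needed for cytokinesis, 955 and 965, then 881 and 974. Kif23, a motor of the central spindle, was the highest of the members in Wip1+/+ cells, with 605 and 694, 1.15-fold higher, but its other probe set had a log2 ratio of -0.73 there.

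Kinetochore genes were divided. Ndc80 and Nuf2, partners in the complex that binds microtubules, were both lower in irradiated Wip1+/+ cells, with 352 and 247 (1.43-fold) and 636 and 466 (1.37-fold). In cells labelled Wip1-/- Ndc80 read 357 and 354, with nearly no difference, and Nuf2 656 and 419, 1.57-fold lower. Spc25, of the same complex, went the other way in both genotypes, with 816 and 917, then 769 and 905. Cenpa, the centromeric histone variant, read 959.7 and 889, then 737 and 877. Cenpe, a kinetochore motor, read 580.2 and 538, then 652 and 619, and Cenpf 421 and 388, then 486 and 359, both lower in both genotypes. In all, 5 of the 6 genes had ratios below 1 in Wip1+/+ cells (46.9% of all genes).

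In the chromosomal passenger complex, which corrects attachments and steers cytokinesis, the members shared no direction. Birc5, survivin, read 1203 and 1315 (1314.6) in Wip1+/+ cells, 1.09-fold higher, and 2086 (2085.5) and 1264 in those labelled Wip1-/-, 1.65-fold lower, with the highest value on the array that stood apart. Cdca8, borealin, read 893 and 696, then 1239 and 929, and all 3 of its probe sets were lower in Wip1+/+ cells. In cells labelled Wip1-/- the other 2 were higher after irradiation, with log2 ratios of 0.48 and 0.26 against -0.42 for the brightest. All 3 were higher by genotype label after irradiation, with log2 ratios from 0.31 to 0.54. Incenp, the scaffold of the complex, read 1205 and 922, then 594 and 1402, which is 2.36-fold higher in cells labelled Wip1-/-. Its second probe set read 508 and 610.0, then 515 and 592, higher in both genotypes, so neither its lower ratio in Wip1+/+ cells nor the size of the other was shared.

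Spindle and cytokinesis genes were lower in irradiated Wip1+/+ cells in 6 of 7 (46.9% of all genes), with a median log2 ratio of -0.36. Prc1, which bundles microtubules of the central spindle, read 1816 and 1257 (1256.5), 1.45-fold lower, against 885 and 871 by its other probe set. Cells labelled Wip1-/- gave 1564 and 1424. Racgap1, a GTPase regulator of cytokinesis, read 979.8 and 722, then 1074 and 865. Anln, the scaffold anillin of the cleavage furrow, read 3639 and 2837, then 2143 and 3109, the last pair 1.45-fold higher. Hmmr, a spindle-associated protein, read 942 (941.5) and 736, then 1228 and 787, lower in both, and its 4 passing probe sets ranged from -0.66 to -0.16 in Wip1+/+ cells. In cells labelled Wip1-/- the same 4 ranged from -0.64 to 0.69.

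Tpx2, which activates Aurka on the spindle, read 1640.3 and 1513, then 1135 and 1395. Its 4 probe sets were all lower in irradiated Wip1+/+ cells and lower on the array labelled Wip1-/- than on the Wip1+/+ array before irradiation. Nusap1, a spindle microtubule protein, read 556 and 583, then 407 and 682 (681.5), higher after irradiation in both. Ect2, the exchange factor that turns on RhoA for cytokinesis, read 601 and 575, then 527 and 605.

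Foxm1, the transcription factor that drives G2/M genes, had the lowest ratio of the members in Wip1+/+ cells. It read 350.9 and 200.9 there, 1.75-fold lower, and 432 and 295 in cells labelled Wip1-/-, 1.46-fold lower. Its 3 passing probe sets were all lower in both genotypes, with log2 ratios from -0.80 to -0.11 and from -0.95 to -0.40. By genotype label after irradiation they disagreed, from -0.52 to 0.55. Mki67, which encodes the proliferation antigen Ki-67 that coats mitotic chromosomes, read 1364 and 1055, then 1702 and 1153, 1.29-fold and 1.48-fold lower. Top2a, the topoisomerase that untangles sister chromatids, differed from these, with 2342 and 2455, then 2319 and 2604, slightly higher in both. The members under the limit for entry were dim: Cdc25c, another Cdk1-activating phosphatase, read 156 and 128, then 49.1 and 76.6, and Oip5, a centromere protein, 80.8 and 51.2, then 83.5 and 217.

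**Figure D3:**
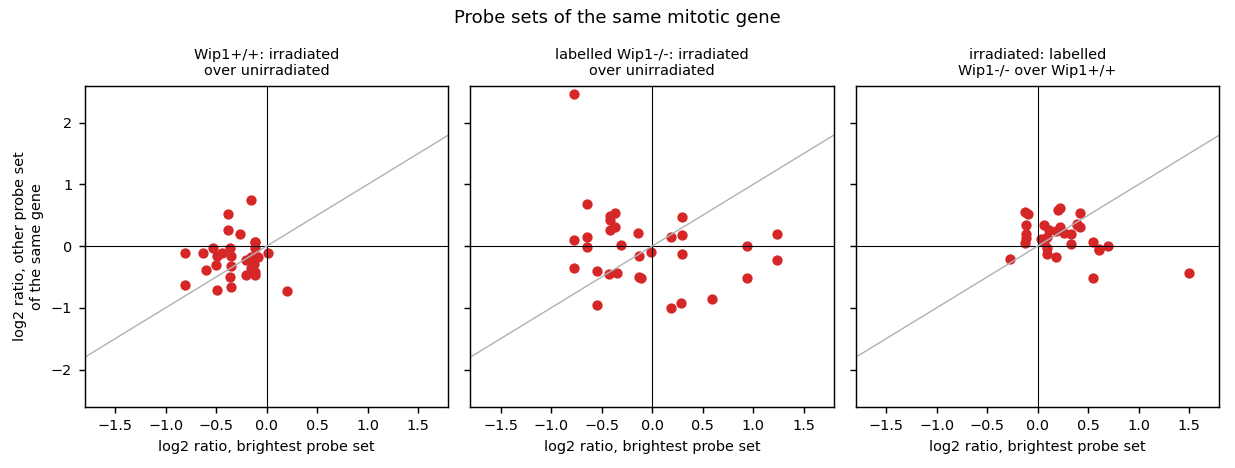
Log2 ratio of the other passing probe sets (y axis) against that of the brightest (x axis) for the 20 mitotic genes with more than 1, 32 points per panel, with the grey line marking equal values. In irradiated over unirradiated Wip1+/+ cells 24 points share the sign of the brightest, in cells labelled Wip1-/- 14, and between genotypes after irradiation 19. The point far above the rest in the middle panel is the dimmest probe set of Cdc20, which lay at the floor before irradiation.

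Other cell cycle genes, from lists compiled by function, had list medians between -0.13 and 0.04 in Wip1+/+ cells, nearer to 0 than that of the 44, apart from the p53-linked arrest genes. Of 34 further kinesin, spindle and cytokinesis genes, 18 had a ratio below 1 after irradiation (46.9% of all genes) and 16 above (53%). Their median log2 ratio was -0.02. Aspm, a spindle pole protein, read 266 and 256, and Cep55, of abscission, 571 and 567. Of 29 further kinetochore and centromere genes 13 were below 1 (median 0.02), and of 17 APC/C genes 10 (median -0.03). No APC/C gene was 20% lower or 25% higher (8.89% and 12.4% of all genes). Condensin and cohesion genes had 10 of 19 below 1 (median 0.00), a sign that turned with the scaling. Replication genes of G1/S were nearer to the mitotic list, with 22 of 34 below 1 and a median of -0.13.

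Regulators upstream of the mitotic genes were divided. Genes of the DREAM and MuvB complexes had 7 of 11 ratios above 1 in Wip1+/+ cells (53% of all genes, list median 0.04). Mybl2, which encodes B-Myb, read 180 (179.6) and 153, then 172 and 197 (196.5). Of 18 genes of the Cdk1 switch, such as Cks1b and the phosphatase PP2A, 11 were below 1 (46.9% of all genes, list median -0.07). Pkmyt1, a kinase that inhibits Cdk1, read 139.9 and 263, then 273 and 200.4, in opposite directions. The p53-linked arrest genes had a median of 0.30, with 7 of 9 above 1. Gadd45a, which can inhibit Cdk1 with cyclin B, was 2.44-fold and 2.26-fold higher after irradiation, and Btg2, an antiproliferative factor, read 915 and 1715, then 691 and 1316.

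In cells labelled Wip1-/-, list medians after irradiation were -0.08 for further spindle genes, -0.06 for kinetochore genes and -0.09 for condensin and cohesion genes. They were -0.20 for APC/C genes, -0.21 for the Cdk1 switch and 0.79 for arrest genes, against -0.02 over all genes. The denominator of all these ratios is the array that stood apart. Between the irradiated arrays, which leave it out, 7 of 9 arrest genes were below 1 by genotype label (50.5% of all genes, list median -0.08). The DREAM and MuvB genes had a median of 0.19, with 8 of 11 above 1 (48.3% of all genes). G1/S genes had 0.01 there, with a sign that turned under the other scalings. The genes 2-fold apart differed in direction, where 4.77% of all genes were 2-fold higher and 2.51% were 2-fold lower. Kifc1, a minus-end spindle motor, was 3.0-fold higher (82.3 to 247), Depdc1a 2.61-fold higher and Iqgap3 2.20-fold lower. Cenpq, a kinetochore subunit, was 2.43-fold lower, while Esco2, an acetylase of cohesion, was at least 3.74-fold higher from a signal below the floor. Also 2-fold higher were Cenpc1, Ncapd3, Cdc23, Dyrk1a, Rprm, Ccng1, Mcm2, Mcm3 and, as a bound, Nsl1, and 2-fold lower were Sapcd2 and Orc1. Each of these with another passing probe set had at least 1 that was less than 2-fold apart or went the other way: the log2 ratio was 0.00 for Ncapd3, -0.10 for Cdc23, -0.21 for Mcm2, 0.18 for Ccng1 and -0.29 for Orc1. Dyrk1a had -0.87 by 1 of its 2 other probe sets, and Mcm3 ranged from -0.36 to 0.26 over 3 others. By the brightest probe set, the genes named here as 2-fold higher all read lowest on the array that stood apart. Those named as 2-fold lower all read highest on it.

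By genotype label after irradiation, ratios were above 1 in 21 of 34 further spindle genes and 17 of 29 further kinetochore genes. The share of all genes was 49.4%, and the medians of these lists were 0.06 and 0.10. For APC/C genes the median was -0.02, and for G1/S genes 0.02. Housekeeping genes had 11 of 22 above 1, with a median of 0.00 whose sign turned with the scaling. Before irradiation the further spindle genes had a median of 0.12 and the APC/C genes 0.23, on the array that stood apart. Genes 2-fold apart there were mostly lower, and over all genes 5.87% were 2-fold lower and 3.47% higher. Depdc1a, a mitotic regulator, read 285 and 81.3 (3.51-fold). Kntc1, of the kinetochore corona, read 408 and 163 (162.5, 2.51-fold), and Mis12, of the kinetochore base, 663 and 311 (2.13-fold). None of these had another passing probe set. For other lower genes, further probe sets of Ckap2l, Mcm6 and Cdc23 went the other way, with log2 ratios of 0.86, 0.95 and 0.04. Those of Ppp1cb and Dyrk1a went both ways. Those of Ccne1, Mcm3, Ccng1 and Sdha were lower but less than 2-fold apart. Stil, a centriole duplication factor, was 2.27-fold higher. So was Orc1 (2.20-fold), with a log2 ratio of -0.17 by its other probe set. After irradiation Cenpq was 2.01-fold lower and the replication helicase gene Mcm2 2.34-fold higher, the latter with 0.03 (log2) by its second probe set.

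**Figure D4:**
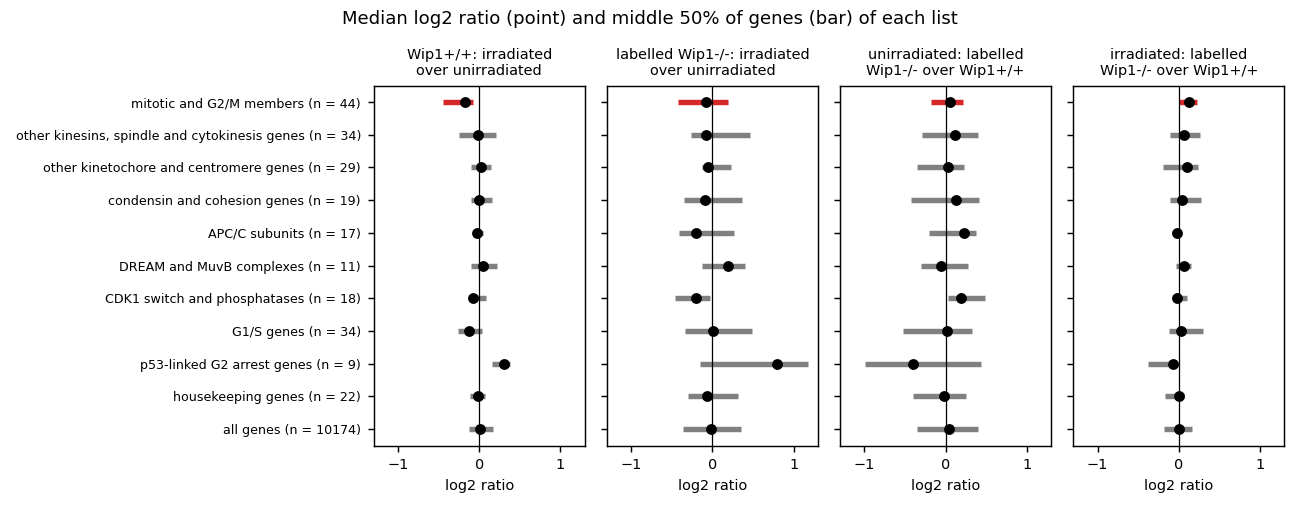
Median log2 ratio (point) and middle 50% of genes (bar, red for the mitotic genes and grey for other lists), with the number of genes measured, in 4 comparisons of 1 array against 1 array. The mitotic genes sit at -0.18 in irradiated over unirradiated Wip1+/+ cells, where G1/S genes sit at -0.13 and all genes at 0.02.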

How the data were processed

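The authors deposited 1 linear intensity for each probe set on each array, from total RNA of mouse embryonic fibroblasts. GCOS is named, without a version, per the submitters' processing notes, and its settings are not given here. The trimmed mean (2% at each end) was 500.0 on each array, so the deposited values were used as they were. Array depth is the signal over background. At or below the floor lay 36.7% to 41.7% of probe sets per array. The floor is percentile 40 of all signals, so a share near 40% follows by construction and does not measure depth.

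Of 45101 probe sets, 64 were controls, and 34945 others had 1 gene symbol in the platform annotation. Probe sets with more than 1 symbol (932) or absent from that annotation (9160) were set aside. A floor of 46.5, percentile 40 of all signals, was applied before log2. A gene was its brightest probe set by mean over 4 arrays and entered at a mean of at least 111, the median over named probe sets. Ratios are log2 differences between arrays. Where one signal lay at the floor, the fold is written "at least". The members and the lists were chosen with earlier results of these data known. Named were 14 core genes, of which 13 were measured (Ccnb1 was not), the 5 highest and lowest ratios per comparison, and list genes 2-fold apart, with further members and list genes as examples picked after their values were seen. Alternatives were quantile normalization, cyclic loess, scaling by the brighter probe sets' median, other floors and filters, other choices of probe set, and other arrays in place of the one that stood apart. The scripts were tested on simulated data. Python 3.11.15, numpy 2.4.6, pandas 2.3.3, R 4.3.3 and limma 3.58.1 were used. Promoters are from RefSeq.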

Additional observations from a re-analysis of the deposited data

Results flagged for a closer look

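Of the mitotic genes, 4 were at least 20% lower after irradiation in Wip1+/+ cells and at least 25% higher in cells labelled Wip1-/-, by their brightest probe set (9.09%, against 2.07% of all genes). The reverse held for 0 (2.94% of all genes). The difference between the genotypes was not tested, since each group held 1 array. The response in cells labelled Wip1-/- exceeded that in Wip1+/+ cells on the log2 scale by 1.63 for Incenp, 1.42 for Kif11, 1.23 for Nek2 and 0.90 for Anln. These differences use the array that stood apart, on which Incenp, Kif11 and Anln read lowest. Irradiated cells labelled Wip1-/- read 371 for Kif11 and 3109 for Anln, below the unirradiated Wip1+/+ values of 398 and 3639. Incenp and Nek2 read above theirs. Other probe sets that passed the limit went below 1 in cells labelled Wip1-/- for each of Incenp, Kif11 and Nek2, with lowest log2 ratios of -0.22, -0.52 and -0.86. Anln had no other probe set that passed.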

How the results depend on the processing

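No paired analysis was possible because each group held 1 array. The members' medians kept their sign under every alternative for Wip1+/+ irradiation (-0.22 to -0.14) and the irradiated genotypes (0.08 to 0.14). They also did for the response difference (0.07 to 0.14), but the array that stood apart was not replaced in any of its alternatives. Where that array was replaced, the members' medians changed sign. They became 0.015 for labelled Wip1-/- irradiation (all genes 0.013) and -0.10 for the unirradiated genotypes (all genes 0.018). By second brightest probe sets, held by 20 members, counts below 1 were 17, 12, 8, 6 and 8 in the order Wip1+/+ irradiation, labelled Wip1-/- irradiation, unirradiated genotypes, irradiated genotypes and response difference, since fewer genes entered.

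Among the 13 measured core genes, sign changes of ratios at least 20% lower or 25% higher came from other probe sets or the replaced array, and their cause was not tested. For irradiation of cells labelled Wip1-/-, Aurkb had 0.0033 by the median over probe sets and 0.43 by the second brightest, and Cdc20 0.10 by both and without _x_at and _s_at probe sets. With the array replaced, Ccnb2 had 0.0075, Birc5 0.0077 and Foxm1 0.15. Between unirradiated genotypes, Aurkb had -0.060 and -0.49 by those probe set choices and -0.053 with the array replaced, Cdc20 -0.26 and -0.088, and Ccnb2 -0.13. Between irradiated genotypes Foxm1 had -0.52 by the second brightest. In the response difference, Aurkb had 0.14 and 0.60, Cdc20 0.32 and Wee1 -0.54. The number of arrays and the signal over background limit all values.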
